A study of Mus musculus with 144 samples.

Results

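The comparison described here set single cells sorted from mouse retina 4 days after optic nerve crush against single cells from retinas whose nerve was left uncrushed. Both groups came from 20 to 22 month old C57BL/6 mice carrying Iba1-EGFP, which labels microglia and other macrophages with a green fluorescent protein under the Iba1 gene's control, and the labels call every cell a microglial cell. Each cell was sorted by flow cytometry into its own well, and its amplified cDNA was sequenced as 1 library. Wells were kept when at least 50000 reads could be recovered from the deposited values and when S100a8 and S100a9, abundant genes of neutrophils, were not both at 1000 RPM or more, RPM being a gene's reads scaled to a common total per well. Of the 144 wells of the series, 45 were kept, 20 from day 4 after crush and 25 uncrushed, all on plates 1 and 2.

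Those plates held 36 day 4 wells and 36 uncrushed wells, of which 22 day 4 wells and 26 uncrushed wells reached the read minimum. The S100a8 and S100a9 rule then removed 2 day 4 wells and 1 uncrushed well. Neither threshold cut through a continuum of wells: the deepest well under the minimum in the whole series had 14205 reads and the shallowest above it 60079, and the highest kept S100a8 level was 205 RPM, while the lowest among the removed wells was 2414 RPM. Plate 1 gave 10 day 4 wells and 10 uncrushed wells, and plate 2 gave 10 day 4 wells and 15 uncrushed wells. No label names the animal of a well, so each group was treated as 1 sample and no test was run. The 10 kept day 4 wells of plate 1 are labelled day 4 in their titles and day 2 in their treatment field. Titles were followed here. A gene counted as changed only when both plates passed, and medians by plate are given for many of the gene lists. Day 4 cells filled rows F to H of each plate and uncrushed cells rows A to C, so group and plate row cannot be told apart.

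Microglia are the resident macrophages of the retina. In the uninjured tissue they survey their surroundings with fine processes and carry a set of genes, among them the purinergic receptor P2ry12 and the protease inhibitor Cst3, by which they are usually recognised. Crush of the optic nerve severs the axons of retinal ganglion cells, and microglia nearby respond with changes of shape, division, phagocytosis and release of chemokines and cytokines. The series' title concerns Gpr84, a receptor for medium-chain fatty acids that myeloid cells induce in inflammation, the cytokines Tnf and Il1a, and signalling through the small GTPase RhoA and its kinases, ROCK.

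Promoter sequence is shown for 2 genes that stood on opposite sides of the comparison, the chemokine Ccl12, which had the highest difference, and Cst3, which was lower in day 4 wells on both plates. The windows run from 250 bases before the gene's start to 50 bases after it, from RefSeq on GRCm38.p6, and capitals mark matches on either strand to GGGNNNNNCC, a loose form of the NF-kB motif, or to GAGGAA, the core of the PU.1 motif. Ccl12 lies at chr11:82101595-82101894 on the plus strand and held 0 matches to the first and 1 to the second. Cst3 lies at chr2:148875463-148875762 on the minus strand and held 4 matches to the first, some overlapping, and 1 to the second. Of 32851 mouse promoter windows of this length, 50.8% held the first and 28.3% the second, so that a match describes the letters and does not mark a site.
Ccl12: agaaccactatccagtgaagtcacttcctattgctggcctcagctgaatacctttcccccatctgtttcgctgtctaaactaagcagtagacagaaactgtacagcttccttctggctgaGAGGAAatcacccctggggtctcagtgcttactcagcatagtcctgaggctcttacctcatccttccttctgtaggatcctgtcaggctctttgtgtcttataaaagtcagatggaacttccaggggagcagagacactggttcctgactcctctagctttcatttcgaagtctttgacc
Cst3: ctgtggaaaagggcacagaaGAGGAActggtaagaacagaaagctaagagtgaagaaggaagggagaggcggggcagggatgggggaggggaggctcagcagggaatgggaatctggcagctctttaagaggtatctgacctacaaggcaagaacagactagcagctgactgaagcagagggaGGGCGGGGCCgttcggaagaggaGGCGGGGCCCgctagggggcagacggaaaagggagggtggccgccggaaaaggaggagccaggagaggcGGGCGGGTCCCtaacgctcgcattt

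Day 4 wells tended to show more genes than uncrushed wells. They held between 2972 and 10849 genes with any read, with a median of 6059.5, against 1415 to 5684 genes with a median of 3239 in uncrushed wells. The same order held on plate 1, with medians of 5144 in day 4 wells and 3031 in uncrushed wells, and on plate 2, with 6947 in day 4 wells and 3311 in uncrushed wells. Of the 20 day 4 wells, 10 had more genes than any uncrushed well and the other 10 lay within the uncrushed range. Recovered reads overlapped more, with 275472 to 8023490 reads and a median of 874300 in day 4 wells and 60079 to 2347720 reads and a median of 481670 in uncrushed wells. When each well was thinned to 50000 reads, day 4 wells still held 1184 to 5761 genes with a median of 2461, against 582 to 2840 with a median of 1191 in uncrushed wells. The 20 most abundant genes took a median of 17.4% of reads in day 4 wells and 29.6% in uncrushed wells.

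**Figure D1:**
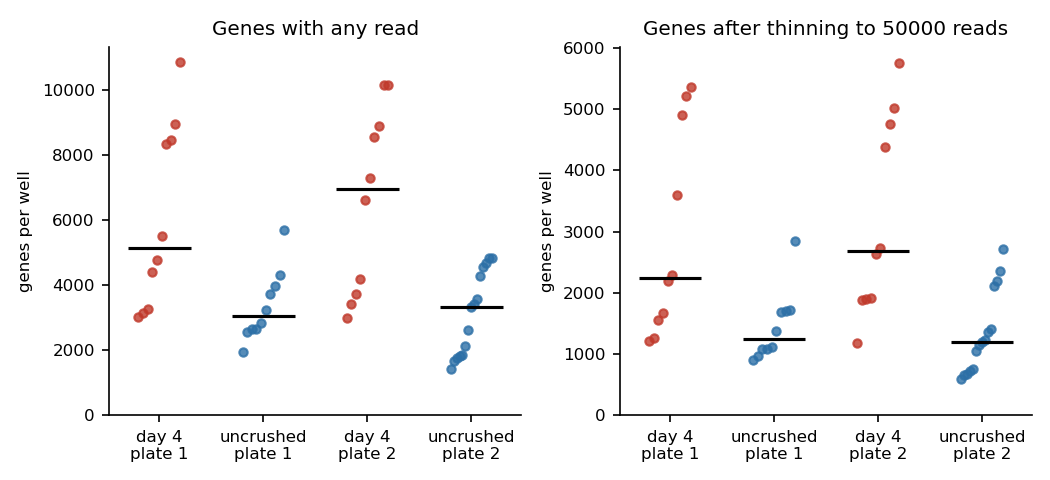
Genes per kept well with any read (left) and after thinning to 50000 reads (right), day 4 wells left of uncrushed wells, by plate; each point is 1 well and bars are medians. On both plates day 4 wells reach above the highest uncrushed well, which held 5684 genes before and 2840 after thinning.

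Most wells carried the markers of microglia that their label names. Of 11 microglial markers, among them Aif1, Csf1r, Cx3cr1, P2ry12 and Tmem119, day 4 wells held 2 to 11 at 100 RPM or more, with a median of 10, and uncrushed wells held 1 to 10, with a median of 8. At least 3 were present in 19 of 20 day 4 wells and 22 of 25 uncrushed wells. An alternative without wells rich in rod markers or poor in microglial markers kept 17 of 20 day 4 wells and 17 of 25 uncrushed wells. Protein-coding genes took 85.0 to 92.7% of reads in day 4 wells and 50.4 to 91.6% in uncrushed wells, so the uncrushed wells were the more uneven group. No kept well held 3 or more markers of neutrophils, monocytes, border-associated macrophages, endothelial cells or lymphocytes. Of 10 markers of monocytes or infiltrating macrophages, 6 in day 4 wells and 9 in uncrushed wells were under 100 RPM in every well, Ccr2 and Ly6c2 among them. Day 4 wells held at most 2 of the 10, with a summed level of up to 60971 RPM. Uncrushed wells held at most 1, with up to 2104 RPM. Rod photoreceptor RNA was present in wells of both groups. Of 13 rod markers, day 4 wells held at most 2, with a summed level of up to 1619 RPM, and uncrushed wells held at most 4, with up to 5724 RPM, 2 of them holding 3 or more. The median number of cone markers was 1 in each group, with a median summed level of 342 RPM in day 4 wells and 290.2 RPM in uncrushed wells. Of the 7 cone markers, however, 5 in day 4 wells and 4 in uncrushed wells were under 100 RPM in every well, Arr3 and Gnat2 among them. Another, Pde6h, overlaps Arhgdib on the other strand and followed it over wells (Pearson r 0.97), so its reads cannot be told from those of Arhgdib. In addition, 1 uncrushed well held 3 or more markers of Mueller glia or astrocytes. Day 4 replicate 1, on plate 1, stood apart: it held 2 microglial markers, and its most abundant gene was Chil3, a chitinase-like protein of alternatively activated macrophages, at 42675 RPM against at most 21.5 RPM in the other day 4 wells. The macrophage elastase Mmp12 at 25039 RPM and fibronectin, Fn1, at 18291 RPM followed in that well. Chil3 and Fn1 are both among the 10 markers of monocytes or infiltrating macrophages. Uncrushed replicate 24, on plate 2, held 1 microglial marker and 14080 RPM of the lysozyme gene Lyz2, against at most 5087 RPM in the other uncrushed wells.

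Across genes, most differences ran one way. A gene was compared when it reached 100 RPM, which is at least 6.01 reads in the shallowest well, in at least 10% of the kept wells, and 3061 of 55364 genes did so. Differences are of mean log2(RPM + 1), day 4 minus uncrushed, and their median over these genes was 1.93, with 1.65 on plate 1 and 2.22 on plate 2. A gene counted as past the fold when its difference was 2 or more in size over all wells and 1 or more with the same sign on each plate. By that rule 1333 genes, 43.5%, were higher in day 4 wells and 8 genes, 0.261%, were lower. Any gene or gene group has therefore to be read against a background in which 93.1% of genes lay above 0. The filter counts the wells of both groups together: 234 of the compared genes were held by 0 uncrushed wells and 28 by 0 day 4 wells. Such genes passed the filter through 1 group alone, so a count past the fold among compared genes is partly set by the filter. By the share of wells that held a gene at 100 RPM, 368 genes, 12%, were at least 40 percentage points more frequent in day 4 wells, with 20 or more on each plate, and 5 genes, 0.163%, were less frequent by as much.

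Because the number of genes per well moved with the groups, the counts were also made with the 10 day 4 wells that lay within the uncrushed range, which held 2972 to 5510 genes with a median of 3574.5, against all 25 uncrushed wells. This restriction was chosen after the data were seen, and whether the number of genes reflects the cells or the libraries was not tested. The median difference was then 0.39 over the same 3061 genes and 0.59 over the 2014 genes that passed the filter in these wells. Of the 2014, 337 genes, 16.7%, were past the fold upward and 80 genes, 3.97%, downward. Over the 3061 genes instead, 365 were past the fold upward and 78 downward in these wells, and 359 and 4 of these were past it in all kept wells too. Values from these 10 wells are called matched below, since their numbers of genes lie within those of uncrushed wells. Of the 10, 6 were on plate 1, where the treatment field says day 2, and 4 on plate 2, and they include day 4 replicate 1, the well with 2 microglial markers. Without that well, 329 genes were past the fold upward and 98 downward, with a median difference of 0.55.

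**Figure D2:**
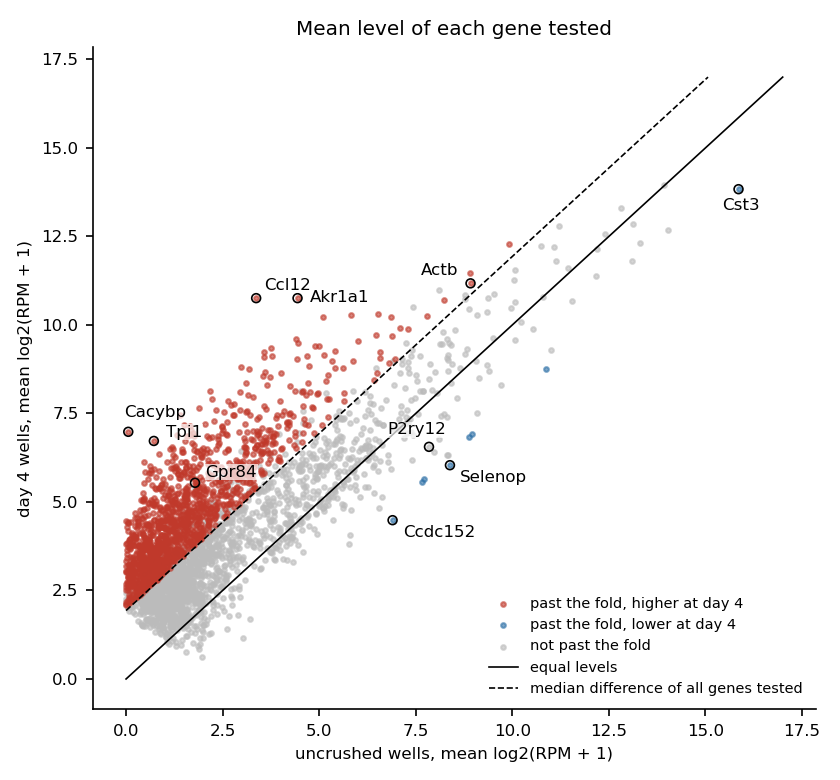
Mean log2(RPM + 1) of each compared gene in the 20 day 4 wells (vertical axis) and the 25 uncrushed wells (horizontal axis); each point is a gene, colours mark genes past the fold, and the dashed line lies 1.93 above equal levels. Most genes lie above the solid line of equal levels, and Cst3 and Selenop are among the few below it.

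Ccl12, a chemokine that attracts monocytes through the receptor Ccr2 (ENSMUSG00000035352, chromosome 11, 82101845 to 82103400, plus strand), had the highest difference of all named genes. It ranged over 0, 3188 and 17027 RPM (lowest, median and highest) in day 4 wells and over 0, 4.38 and 5594 RPM in uncrushed wells. The groups overlapped at their edges, but 18 of 20 day 4 wells held the gene and 3 of 25 uncrushed wells did. As shares these were 90% of day 4 wells (95% exact binomial interval 68.3 to 98.8%) and 12% of uncrushed wells (2.55 to 31.2%), intervals that cover counting error only and treat wells as independent. The difference was 7.39, with 7.69 on plate 1 and 7.39 on plate 2, and 7.01 in matched wells. It lay 5.46 above the median of all genes.

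Cacybp, which ties the ubiquitin ligase Siah1 to its targets and binds the S100 protein calcyclin, ranged over 0, 301 and 2633 RPM in day 4 wells, whereas no uncrushed well passed 1.70 RPM. It was held by 14 of 20 day 4 wells and 0 of 25 uncrushed wells, a count that allows a share of up to 12% of such wells. Its difference was 6.92. Akr1a1, an aldehyde reductase, was held by all 20 day 4 wells, at 421, 1436 and 7875 RPM, against 0, 13.2 and 15128 RPM in uncrushed wells, 7 of which held it. Most uncrushed wells thus lay below the lowest day 4 well, while the highest uncrushed well passed the highest day 4 well. Its difference was 6.32, and 7.0 in matched wells.

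Tpi1, the glycolytic triose phosphate isomerase, was at 0, 349 and 3080 RPM in day 4 wells and at 0, 0 and 286 RPM in uncrushed wells, with a difference of 6.00. Ran, the GTPase of nuclear transport, was at 0.12, 579 and 2171 RPM in day 4 wells and at 0, 0.77 and 1420 RPM in uncrushed wells, with a difference of 5.96. The rest of the 12 named genes with the highest differences were the RNA-binding proteins Hnrnpc (6.07) and Hnrnpab (5.67), the GDP dissociation inhibitor Arhgdia (5.84), the lysosomal glucuronidase Gusb (5.76), the proteasome subunit Psma5 (5.69), the nucleoside diphosphate kinase Nme1 (5.66) and the lysosomal protease Ctsc (5.66). All 12 were also past the fold in matched wells. Counted together, day 4 wells held 5 to 12 of these 12 genes, with a median of 9.5, and uncrushed wells held 0 to 7, with a median of 1. Because the genes were picked for their differences, this last count only describes how evenly they were spread over wells. Hnrnpab overlaps Phykpl on the other strand and Nme1 overlaps Gm20390, and strand use in counting is not given in the sources used here, so the reads of such neighbours cannot be told apart.

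**Figure D3:**
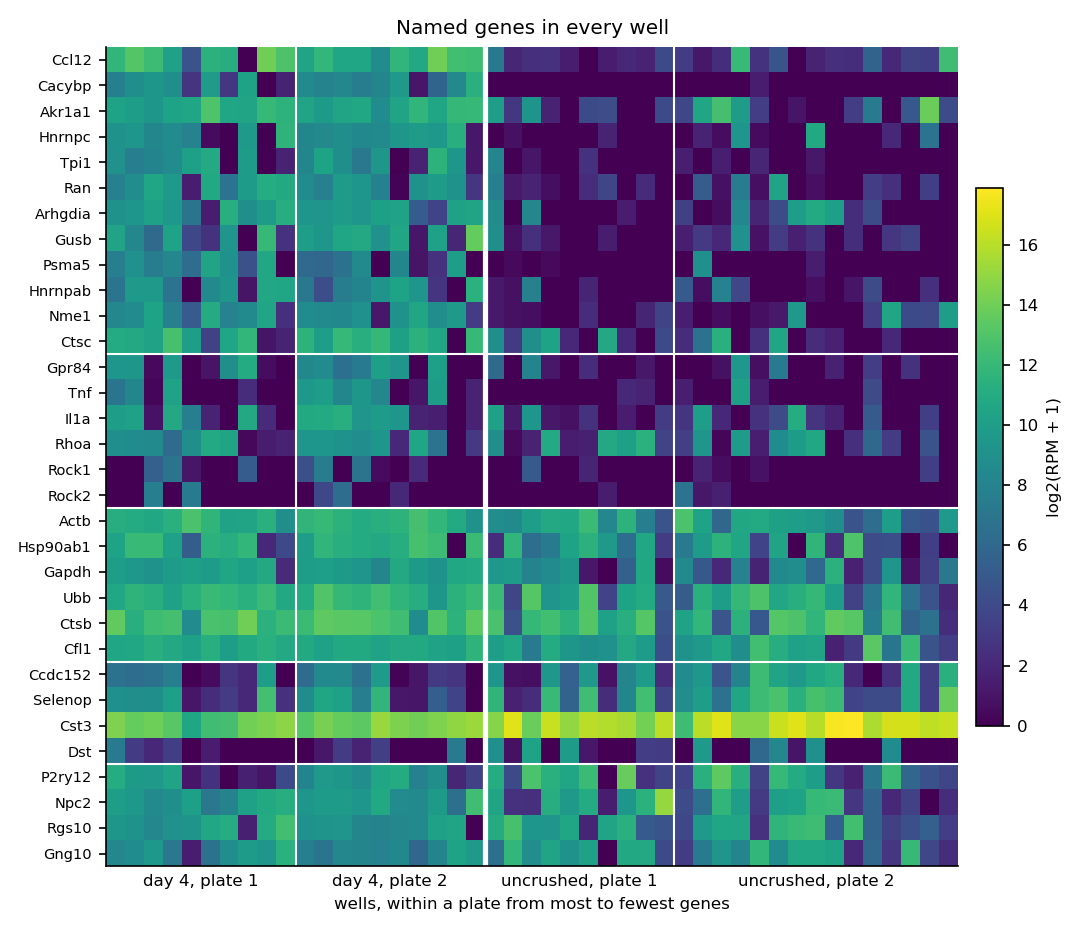
Level of named genes in each kept well as log2(RPM + 1), from dark (0) to bright, with day 4 wells left of uncrushed wells, split by plate and ordered within a plate from most to fewest genes. The upper rows, led by Ccl12 and Akr1a1, are bright in most day 4 wells and dark in most uncrushed wells, Gpr84, Tnf and Il1a are bright mostly at the left of each day 4 block, and Cst3 is bright in every well.

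Another 11 genes shared the pattern of Cacybp, each being held by 10 or more day 4 wells and by 0 uncrushed wells. Ccl2, a monocyte chemoattractant of the same gene cluster on chromosome 11 as Ccl12, was among them, at 0, 371 and 1792 RPM in day 4 wells and at most 7.66 RPM in uncrushed wells. The 12 day 4 wells that held Ccl2 all held Ccl12 as well. The others were the signalosome subunit Cops9, the SLAM family receptor Slamf9, the fatty acid elongase Elovl1, the splicing factors Snrpa1 and Srsf3, the chaperonin subunit Cct2, the proteasome-bound deubiquitinase Usp14, and Smim7, Cuedc2 and Morf4l2. Of genes held throughout a group, 37 were held by every day 4 well and 6 by every uncrushed well, of which 5 were shared. Akr1a1, the ribosomal stalk protein Rplp0 and the surface glycoprotein Cd52 were held by every day 4 well but by 7, 11 and 12 of the 25 uncrushed wells.

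Among secreted signals, the chemokines stood highest. Of 20 chemokine genes listed, 8 passed the filter, and 7 of these, 87.5% against 43.5% of all genes compared, were past the fold upward and 0 downward. Ccl2 and Cxcl13 were held by 0 uncrushed wells and passed the filter through day 4 wells alone, so this count was partly set by the filter. The median difference of the 8 was 3.64, which lay 1.70 above that of all genes. Over all 20, detected or not, the median was 1.0. Besides Ccl12 and Ccl2, at 5.35, the 7 were Cxcl16 (5.19), which exists in a membrane-bound and a shed form, the leukocyte attractants Ccl4 (4.13) and Ccl3 (3.05), Ccl9 (3.14) and the B cell attractant Cxcl13 (3.09). Ccl6 had a difference of 0.15. In matched wells the median was 2.04 and 2 of the chemokines were past the fold, and Ccl2 had a difference of 1.90 there, below the fold. Of the 12 day 4 wells that held Ccl2, 10 had more genes than any uncrushed well.

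Of 24 cytokines and growth factors, 6 passed the filter and 4 were past the fold upward, 66.7% against 43.5% of all genes compared. The 4 include a gene that passed the filter through day 4 wells alone. Mif, the macrophage migration inhibitory factor, was at 0, 400 and 3824 RPM in day 4 wells and at 0, 0 and 1300 RPM in uncrushed wells, with a difference of 5.26 and, in matched wells, 4.22. Tnf (ENSMUSG00000024401, chromosome 17, 35199381 to 35202007, minus strand) was at 0, 3.19 and 1284 RPM in day 4 wells and at 0, 0 and 1150 RPM in uncrushed wells. It was held by 9 of 20 day 4 wells and 1 of 25 uncrushed wells, with a difference of 3.48. Il1a (ENSMUSG00000027399, chromosome 2, 129299610 to 129309972, minus strand) was at 0, 427 and 2501 RPM in day 4 wells and at 0, 3.06 and 2162 RPM in uncrushed wells, held by 11 day 4 wells and 4 uncrushed wells, with a difference of 3.05. For both cytokines the groups overlapped over nearly their whole range, and what separated them was the number of wells that held the gene. These wells were mostly the ones with many genes: 8 of the 9 day 4 wells with Tnf and 9 of the 11 with Il1a had more genes than any uncrushed well. In matched wells the differences were 0.66 for Tnf and -0.27 for Il1a. Il1a overlaps Gm14023 on the other strand.

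Gpr84 (ENSMUSG00000063234, chromosome 15, 103308235 to 103310612, minus strand) was spread over wells in a like way. It was at 0, 243 and 2030 RPM in day 4 wells and at 0, 0 and 732 RPM in uncrushed wells. The gene was held by 11 of 20 day 4 wells (55%, interval 31.5 to 76.9%) and by 3 of 25 uncrushed wells (12%, interval 2.55 to 31.2%), and its difference was 3.76, with 3.16 on plate 1 and 4.32 on plate 2. Of the 11 day 4 wells, 8 had more genes than any uncrushed well, and the difference in matched wells was 1.36, below the fold. Gpr84 overlaps Gm49482 on the other strand. Of 21 inducible G protein-coupled receptors listed, 9 passed the filter. Of the 9, 44.4% were past the fold upward, near the 43.5% of all genes compared. These 4 were Gpr84, the complement receptor C3ar1 (3.17), the nucleotide receptor P2ry6 (3.10) and the oxysterol receptor Gpr183 (3.09). The complement receptor C5ar1 had a difference of 3.68 without passing the fold on each plate. The list's median was 3.09 over the 9 genes compared, against 1.93 for all genes, and 0.71 over all 21. By plate it was 1.01 on plate 1 and 3.27 on plate 2. Gpr183 was past the fold only with day 4 replicate 6. In matched wells the median was -0.11, and there 0 of its genes were past the fold upward and 3 downward.

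Of the RhoA and ROCK genes named in the title, Rhoa passed the filter and Rock1 and Rock2 did not. Rhoa was at 0, 431 and 1945 RPM in day 4 wells and at 0, 11.5 and 2781 RPM in uncrushed wells, with a difference of 1.5, below the median of all genes compared, and it overlaps Gm37401. Rock1 was held by 3 day 4 wells and 0 uncrushed wells, and Rock2 by 2 day 4 wells and 1 uncrushed well, so that their differences of 1.47 and 0.93 rest on few wells. Of 22 genes of the pathway listed, 11 passed the filter, with a median of 2.08, and of 1.29 over all 22. Past the fold upward were 5 of the 11, or 45.5%, near the 43.5% of all genes compared. These were Arhgdia and Arhgdib (3.37), which hold small GTPases inactive in the cytosol, the membrane-cytoskeleton linker moesin, Msn (4.31), the myosin light chain Myl12a (2.09) and the endosomal small GTPase Rhob (2.08). Myl12a and Rhob each lost the call when any of 23 wells was left out, 1 at a time. Arhgdib overlaps the cone gene Pde6h.

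The list of the actin cytoskeleton and cell movement, which also holds tubulins and vimentin, had a higher share of genes past the fold than all genes did. Of 35 listed, 32 passed the filter and 21 were past the fold upward, 65.6% against 43.5% of all genes compared. The median of the 32 was 2.56, and 1.83 in matched wells. The 4 tubulins compared were all past it, and without them it was 17 of 28 genes, with a median of 2.44. The actin genes included subunits of the Arp2/3 complex, which nucleates branched actin: Actr3 (5.27), Arpc5 (5.02), Arpc1b (4.60) and Arpc3 (3.50). Cdc42 (3.85), the GTPase that activates that complex, and the tropomyosin Tpm4 (4.42) were also past the fold. Actr3 was at 0, 489 and 2770 RPM in day 4 wells and at 0, 0.51 and 2081 RPM in uncrushed wells, and 14 of 20 day 4 wells held it against 2 of 25 uncrushed wells. Tmsb4x, the actin monomer buffer that every kept well held, differed by 0.03.

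Genes that fold and break down proteins were past the fold upward more often than the 43.5% of all genes compared. The shares were 92%, 87.5% and 83.9% for the cytosolic chaperone, proteasome and endoplasmic reticulum lists in turn. Of 29 cytosolic heat shock and chaperonin genes, 25 passed the filter and 23 were past the fold upward, with a median of 3.47. Behind Cacybp came the chaperonin subunit Cct3 (5.57), the Hsp40 Dnaja1 (5.11), the co-chaperone Bag1 (5.07) and Hsp90aa1 (5.02). Of 33 proteasome subunits, 32 passed the filter and 28 were past the fold upward, with a median of 3.48, led by Psma5 and by Psmb2 (5.37) and the ATPase Psmc4 (5.27). Of 35 genes of the endoplasmic reticulum's folding and import machinery, 31 passed the filter and 26 were past the fold upward, with a median of 3.85, led by the secreted stress factor Manf (5.36), calreticulin, Calr (5.27), and the disulfide isomerase Pdia6 (5.25). The Hsp70 of that compartment, Hspa5, had 5.14. In matched wells the medians of the heat shock, proteasome and endoplasmic reticulum lists were 1.65, 1.89 and 1.63. There 11 of 25, 13 of 32 and 9 of 31 genes were past the fold upward, against 11.9% of all genes compared.

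Translation factors and ribosomal proteins stood on opposite sides of the median of all genes. Of 30 translation factors that passed the filter, 18 were past the fold upward, 60% against 43.5% of all genes compared. Eif5a (5.58) and Eif4g2 (5.16) led them, and the median of the 30 was 2.42. Of 76 cytosolic ribosomal protein genes, all of which passed the filter, 17, or 22.4%, were past the fold upward. The median of the 76 was 0.94, which lay 1.0 below that of all genes. Rplp0 (4.43) and Rps2 (4.02) were the highest. Ribosomal protein genes have many processed pseudogenes in the mouse genome, and how reads were split among such copies is not given in the sources used here.

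Genes of glycolysis and of the respiratory chain were also past the fold upward more often than the 43.5% of all genes compared. Of 22 glycolytic genes, 15 passed the filter and 10 of these, 66.7%, were past the fold upward. Their list had a median of 3.54 over the 15 and of 2.12 over all 22. In matched wells the median of the 15 was 3.19. There 7 of them were past the fold upward, against 11.9% of all genes compared. Aldolase, Aldoa, was at 2.51, 1130 and 2894 RPM in day 4 wells and at 0, 3.20 and 1261 RPM in uncrushed wells, a difference of 5.56 with 16 of 20 day 4 wells and 6 of 25 uncrushed wells holding it. Lactate dehydrogenase, Ldha, had 5.34, phosphofructokinase, Pfkl, 5.07, pyruvate kinase, Pkm, 5.03 and enolase, Eno1, 4.80. The regulators Pfkfb3 (1.10) and Pdk1 (0.06), on the other hand, were not past the fold. Of 41 nuclear-encoded genes of oxidative phosphorylation, all compared, 34, or 82.9%, were past the fold upward, led by the complex III subunit Uqcrq (5.11). The median of the 41 was 2.89, and 1.33 in matched wells. Of 22 genes of mitochondrial import and carriers that passed the filter, 16, or 72.7%, were past the fold upward. Among them were the chaperonin Hspe1 (4.55) and the ADP/ATP carrier Slc25a4 (4.41), whose call ended when any of 8 wells was left out.

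The antioxidant list held genes in both directions. Of 18 genes compared, 10 were past the fold upward, 55.6% against 43.5% of all genes compared, and 1 downward. Prdx1, a peroxiredoxin that removes hydrogen peroxide, was at 4.26, 1068 and 2197 RPM in day 4 wells and at 0, 2.56 and 5137 RPM in uncrushed wells, with a difference of 5.53. Selenof (5.20), a selenoprotein of the endoplasmic reticulum, and Prdx2 (4.71) followed, and the downward gene was Selenop, described below. Heme oxygenase, Hmox1, had a difference of 3.71, whereas the ferritin chains Ftl1 (1.22) and Fth1 (0.50) were not past the fold and transferrin, Trf, had -1.34.

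**Figure D4:**
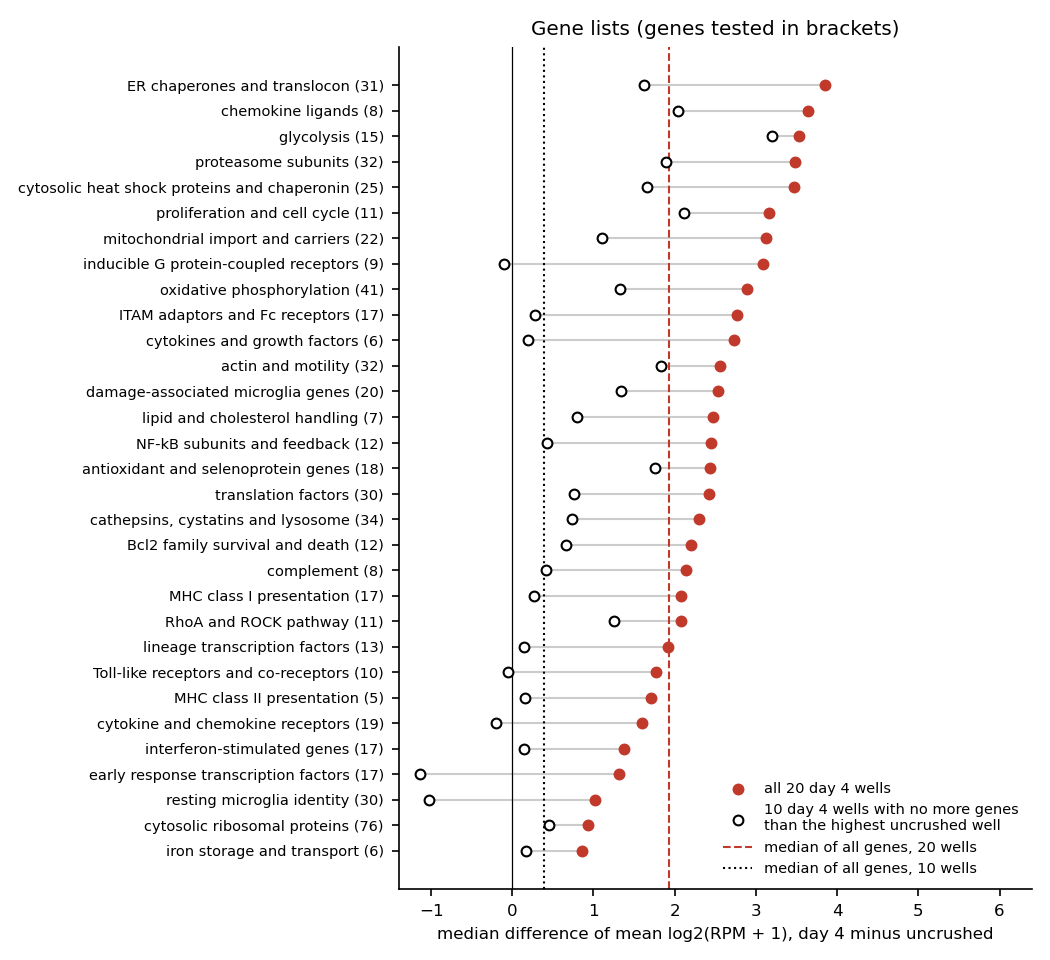
Median difference of mean log2(RPM + 1), day 4 minus uncrushed, of the compared genes of each list; filled points are all 20 day 4 wells, open points the 10 matched ones, and the dashed and dotted lines mark the medians of all compared genes, 1.93 and 0.39. Filled points of the protein folding, proteasome and glycolysis lists lie right of the dashed line, and those of the resting identity, ribosomal protein, iron and early response lists left of it.

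Of the 31 lists with a gene compared, 29 had the higher median on plate 2, as did all genes compared, and 2 on plate 1. Besides the lists whose medians by plate stand beside their genes, those of lysosomal genes were 0.66 on plate 1 and 2.87 on plate 2, of cytokine and chemokine receptors 0.91 on plate 1 and 2.35 on plate 2, of the Bcl2 family 1.33 on plate 1 and 3.25 on plate 2, and of lipid handling 1.43 on plate 1 and 3.10 on plate 2. The medians of the proteasome (3.4 on plate 1 and 3.82 on plate 2) and of the actin list (2.41 on plate 1 and 2.77 on plate 2) lay closer together.

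Genes of phagocytes and of damage-associated microglia, a state described in brains with degeneration, were mixed. Of 27 such genes, 20 passed the filter and 10 were past the fold upward, 50%, near the 43.5% of all genes compared. The list's median was 2.54 over the 20 and 1.6 over all 27. By plate it was 1.57 on plate 1 and 2.82 on plate 2. Clec7a, the beta-glucan receptor, was at 0, 558 and 9983 RPM in day 4 wells and at 0, 0 and 4289 RPM in uncrushed wells, with a difference of 4.76. The lipoprotein lipase Lpl had 4.59, Cd68, a lysosomal membrane protein, 3.67, the receptor tyrosine kinase Axl 3.59 and the cystatin Cst7 3.42. Apoe (0.12), Tyrobp (-0.01) and B2m (-0.04) did not differ by the fold. Among 17 compared genes of ITAM signalling and Fc receptors, 10 were past the fold upward, 58.8% against 43.5% of all genes compared. They were led by Clec7a, the phosphatase Ptpn6 (4.64) and the adaptor Blnk (4.45). The median of the 17 was 2.77, and 0.27 in matched wells. Over all 24 listed it was 1.38, and by plate 1.53 on plate 1 and 3.38 on plate 2.

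Genes of antigen presentation, complement and interferon response had medians close to or below the 1.93 of all genes. The median was 2.08 for 17 MHC class I genes, 1.71 for 5 MHC class II genes, 2.14 for 8 complement genes and 1.38 for 17 interferon-stimulated genes, with 8, 1, 3 and 5 past the fold upward. In percent these counts were 47.1, 20, 37.5 and 29.4, near or below the 43.5% of all genes compared. Over all listed genes, detected or not, the medians were 1.86 for MHC class I, 0.36 for MHC class II, 0.35 for complement and 1.22 for interferon-stimulated genes. The complement median was 0.13 on plate 1 and 2.52 on plate 2, and that of MHC class II 0.91 on plate 1 and 2.21 on plate 2. In matched wells the 4 medians lay between 0.15 and 0.42. The interferon-inducible proteasome genes Psme1 (4.70) and Psmb8 (4.39), the costimulatory ligand Cd86 (4.00) and Ifitm3 (3.65), which restricts viral entry, were among the highest. The complement components C1qa (0.52) and C1qb (0.17), which microglia make in quantity, did not differ by the fold. Among 10 compared Toll-like receptor genes, Tlr2 was the highest, at 0, 185 and 3060 RPM in day 4 wells and at 0, 0 and 356 RPM in uncrushed wells, with a difference of 4.50, and of 1.08 in matched wells.

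Few cell cycle genes were found often enough to compare. Of 39 listed, 11 passed the filter, and 10 of these were past the fold upward, 90.9% against 43.5% of all genes compared. The median of the 11 was 3.16, and 2.11 in matched wells. Over all 39 the median was 1.27. The histone variant H2az1 (4.45) and the tubulin regulator Stmn1 (3.80) were held by 11 and 10 of 20 day 4 wells, against 2 and 1 of the 25 uncrushed wells. The replication helicase subunits Mcm6 (3.75) and Mcm3 (2.85), the kinase subunit Cks1b (2.92) and the survivin gene Birc5 (2.71) were held by 8, 7, 6 and 6 day 4 wells and by 0 uncrushed wells. They passed the filter through day 4 wells alone, so the count past the fold among the genes compared was partly set by the filter. Mcm3 was past the fold only with day 4 replicates 6 and 10.

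Among survival genes, Bcl2a1a, an antiapoptotic target of NF-kB, was held by 17 of 20 day 4 wells and 4 of 25 uncrushed wells, at 0, 193 and 930 RPM in day 4 wells and 0, 2.10 and 566 RPM in uncrushed wells. Its near-identical copies Bcl2a1b (4.26) and Bcl2a1d (3.97) gave much the same differences as Bcl2a1a (3.85), and the split of reads among them is uncertain. Of 12 compared NF-kB genes, 8 were past the fold upward, 66.7% against 43.5% of all genes compared. The highest of the 12 was Bcl2a1b itself, so this count is not separate from the copies above. The median of the list was 2.44, and 1.45 over all 24 listed. In matched wells it was 0.43, and -0.11 there without day 4 replicate 1. Early response transcription factors, which dissociation of tissue can induce, had a median of 1.31, with 2 of 17 past the fold upward, Ier3 (2.86) and Klf6 (2.53), of which Ier3 was past it only with day 4 replicate 14. Their medians on plates 1 and 2 were 0.11 and 2.43, and in matched wells the median was -1.14, with 0 past the fold upward and 5 downward. Jun was held by none of the 10 matched day 4 wells and by 6 of 25 uncrushed wells. Of 13 lineage transcription factors, Spi1 (3.52), Irf8 (3.05), Bhlhe41 (2.75) and Mef2c (2.74) were past the fold upward, Bhlhe41 again only with day 4 replicate 14. Mef2c, at 1.02 on plate 1, lost the call when any of 11 wells was left out.

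Against this upward background, few genes were lower in day 4 cells. Cst3, cystatin C, a secreted inhibitor of cathepsins (ENSMUSG00000027447, chromosome 2, 148871722 to 148875692, minus strand), was held by every well, at 1444, 17133 and 37813 RPM in day 4 wells and at 5170, 69109 and 245556 RPM in uncrushed wells. The groups overlapped, but 18 of the 25 uncrushed wells lay above the highest day 4 well. Mean log2(RPM + 1) was 13.83 ± 1.10 in day 4 wells (SD, n = 20) and 15.86 ± 1.27 in uncrushed wells (SD, n = 25). The difference was -2.02, with -2.05 on plate 1 and -1.86 on plate 2, and it was -2.12 in matched wells. The lowest day 4 value belonged to replicate 1, the well with 2 microglial markers, and without that well the difference was -1.85, short of the fold. As the difference lay near the threshold, leaving out any of 15 of the 45 wells, 1 at a time, ended the call, and over all 45 such omissions the difference ran from -2.17 to -1.85.

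Selenop, the plasma carrier of selenium, which microglia also make (ENSMUSG00000064373, chromosome 15, 3268547 to 3280508, plus strand), was at 0, 123 and 6040 RPM in day 4 wells and at 2.13, 995 and 13678 RPM in uncrushed wells. It was held by 10 of 20 day 4 wells and 16 of 25 uncrushed wells. The groups overlapped over most of their range, and the difference of -2.35 was -1.20 on plate 1 and -3.11 on plate 2. Without day 4 replicate 1 the difference was -2.09, and the gene was then not past the fold on each plate. In matched wells it was -5.01, with 1 of 10 day 4 wells holding the gene. Ccdc152, which overlaps Selenop on the other strand and followed it over wells (Pearson r 0.97 over the same 45 libraries, given as a description), had -2.41. The other 5 genes past the fold downward were the cytoplasmic RNAs Rn7s1 and Rn7s2 and the predicted genes Gm47287, Gm47305 and Gm11410, each of which lost the call when any of 4 to 19 wells was left out.

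The genes by which resting microglia are recognised differed in both directions. All 30 listed were compared: 5 were past the fold upward, 2, Cst3 and Selenop, were past it downward, and the median of 1.02 lay 0.91 below that of all genes. Olfml3 (4.51), a secreted glycoprotein, and Fcrls (4.13), an Fc receptor-like protein held by 8 day 4 wells and 0 uncrushed wells, were the highest. Sparc, a matricellular protein, had -1.70, with -3.12 on plate 1 and -0.47 on plate 2. P2ry12, the receptor that directs microglial processes toward ATP, was at 0, 360 and 2196 RPM in day 4 wells and at 0, 1056 and 13438 RPM in uncrushed wells, held by 12 of 20 day 4 wells and 14 of 25 uncrushed wells. Its difference of -1.29 was -3.06 on plate 1 and 0.37 on plate 2, so the plates did not agree in sign. The list's median was 0.12 on plate 1 and 1.6 on plate 2. In matched wells it was -1.02, with 2 of its genes past the fold upward and 8 downward. P2ry12 was then at -4.59, the fructose transporter Slc2a5 at -3.05 and the receptor Gpr34 at -2.92, and 2 of 10 day 4 wells held P2ry12, against 14 of 25 uncrushed wells.

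Levels within the wells that held a gene were set apart from the number of wells that held it. RPM is a share of a well's reads, of which the 20 most abundant genes took a median of 17.4% in day 4 wells and 29.6% in uncrushed wells. How far this moved the levels was not tested. For 179 genes held by at least 50% of the wells of both groups, mean log2 RPM over the holding wells was compared. Its median difference was -0.68, with -0.33 in matched wells and -0.92 when scaled without the 20 highest genes. In all kept wells 29.1% of the 179 genes were lower by 1 or more, while only 21.2% were higher by any amount. The actin gene Actb, by contrast, was higher in day 4 wells by 1.07, Hsp90ab1 by 0.95, Gapdh by 0.86, the ubiquitin gene Ubb by 0.66, the lysosomal protease Ctsb by 0.64 and the actin-severing protein Cfl1 by 0.63. On plates 1 and 2 in turn, Ubb had 0.05 and 1.09 and Ctsb 0.11 and 1.06, so for these genes it was mostly plate 2. Actb had 1.13 and 1.04, and Cfl1 1.08 and 0.25. P2ry12 had 9.61 ± 1.07 in the 12 day 4 wells that held it and 11.42 ± 1.68 in the 14 such uncrushed wells (SD), a difference of -1.81. After Cst3, at -2.02, and P2ry12 came the cholesterol carrier Npc2 (-1.48), the G protein regulator Rgs10 (-1.47), the G protein subunit Gng10 (-1.46), whose reads cannot be told from those of the overlapping Gm20503, and Selenop (-1.33). Npc2 was held by more day 4 wells than uncrushed wells, 19 of 20 and 13 of 25, while the level in the wells that held it was lower.

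**Figure D5:**
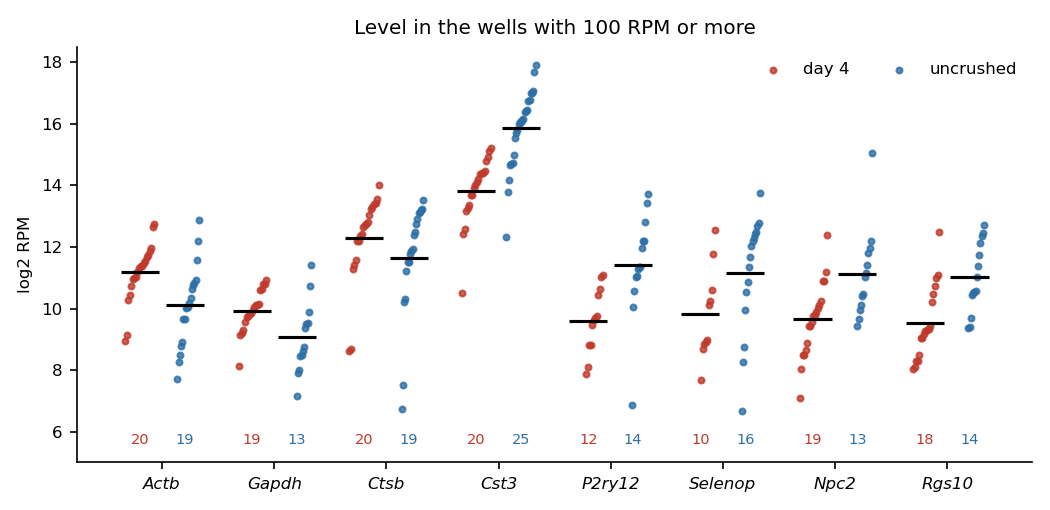
Log2 RPM of 8 genes in each well that held the gene at 100 RPM or more, day 4 wells left of uncrushed wells; points are wells, bars the means, and the numbers below give how many wells held the gene. Actb, Gapdh and Ctsb have the higher mean in day 4 wells, and Cst3, P2ry12, Selenop, Npc2 and Rgs10 in uncrushed wells.

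By the share of wells alone, further genes held more often by day 4 wells were Prdx1 and Tspo, the outer mitochondrial membrane protein used to image microglial activation, each held by 18 of 20 day 4 wells and 6 of 25 uncrushed wells. Rap1b, a small GTPase of adhesion (17 of 20 day 4 wells and 5 of 25 uncrushed wells), Ywhaz, an adaptor of the 14-3-3 family (16 day 4 wells and 4 uncrushed wells), and Eif4g2 (15 day 4 wells and 3 uncrushed wells) followed. In the other direction, the 5 genes past the share rule were ribosomal, small RNA, pseudogene or predicted genes. Rps27rt was held by 2 day 4 wells and 16 uncrushed wells, the pseudogene Gm10073 by 2 day 4 wells and 15 uncrushed wells, Mir682 by 4 day 4 wells and 16 uncrushed wells, and Gm47287 and Gm47305 each by 4 day 4 wells and 18 uncrushed wells. Gm26461, annotated as a miscellaneous RNA, was the 1 gene held by 10 or more uncrushed wells and 0 day 4 wells, and its 10 wells were all on plate 2. Among genes outside those classes, Arrb2, the beta-arrestin that turns off G protein-coupled receptors, was held by 0 day 4 wells, which allows a share of up to 15%, and by 6 uncrushed wells. Rtn4 was held by 0 day 4 wells and 5 uncrushed wells, the lens crystallin gene Crybb1, which microglia also express, by 1 day 4 well and 6 uncrushed wells, and the ATP synthase gene Atp5g2 by 3 day 4 wells and 10 uncrushed wells. Wdr38, held by 8 day 4 wells and 17 uncrushed wells, overlaps the ribosomal gene Rpl35, and Olfr77 overlaps the pseudogene Gm7808.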

How the data were processed

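RNA of each sorted cell was turned into cDNA, amplified and tagmented with the Nextera XT kit, per the labels' protocols. The submitters' processing notes name STAR 2.7.2b, featureCounts 1.6.1, Trim Galore 0.4.4, cutadapt 1.16 and Trimmomatic 0.36 as tools and GRCm38.p6 and mm10 as builds. The authors deposited FPKM for 55364 genes, and no molecular identifiers are given, so reads are not independent molecules.

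RPM was computed as FPKM times gene length over 1000, and a well's depth was derived by treating its most frequent positive RPM as the worth of 1 read. Of the read values under 100, 37.1% came out whole within 0.01, so no count test was run. Cells were grouped by their titles. With no animal named, each group is 1 sample: differences of mean log2(RPM + 1), shares of wells at 100 RPM or more with 95% Clopper-Pearson intervals, and values by plate are given without tests. An upper limit for 0 wells uses 3 counts. Tools were pandas 2.3.3, scipy 1.17.1, numpy 2.4.6 and matplotlib 3.10.9 under Python 3.11.15. The calculation of differences was tried on wells simulated from the mean levels of uncrushed wells. No group difference in genes per well was built in, so that trial does not bear on how such a difference moves the counts. Reads behind a well ranged from 60079 to 8023490, so 100 RPM is at least 6.01 reads.

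Apart from predicted, ribosomal protein, small RNA and pseudogene symbols, the genes named were the 12 highest and 12 lowest differences with 1 or more of the same sign on each plate (4 were that low), the 6 highest and 6 lowest levels in holding wells, the 6 highest and 6 lowest share differences, the genes of the series' title, and the 3 largest differences of each list described. Others named from the lists or from fixed counts were chosen after their values were seen. A few genes that these rules or lists hold are not reported here by name. Members and lists were chosen with earlier results of these data known. Alternatives covered pseudocount, filter, plates, wells kept, thinning, scaling, detection level and leaving out each well. Wells of plate 3 and of day 2 were left out by the rule of the comparison.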

Additional observations from a re-analysis of the deposited data

How the results depend on the processing

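In all kept wells 1333 genes were past the fold upward and 8 downward, the median difference was 1.93, the median level in holding wells -0.68, and 368 and 5 genes passed the share rule. The upward count was 429 with a pseudocount of 10, 615 with the ratio of mean RPM, 543 with a filter at 25% of wells, 852 with all wells whatever their reads, 135 with plates 1 to 3 together and 337 in matched wells. The downward count was 1 with a pseudocount of 10, 70 with the ratio of mean RPM, 3 with plates weighted equally, 53 on plate 1 alone, 5 with plates 1 to 3, 14 after thinning, 2 with at least 200000 reads, 4 with all wells, 2 without wells rich in rod markers or poor in microglial markers, 2 with at least 1000 genes after thinning and 80 in matched wells. The median difference was 1.08 with a pseudocount of 10, 0.52 with the ratio of mean RPM, 0.25 with no filter, 1.37 with all wells and 0.59 in matched wells. The share rule called 751 genes upward and 20 downward on plate 2 alone, 13 upward with plates 1 to 3, 157 and 2 with all wells, 241 upward with at least 1000 genes after thinning and 99 upward in matched wells. It called 27 genes downward on plate 1 alone, 3 with no S100a8 and S100a9 rule, 11 without the wells rich in rod markers or poor in microglial markers and 10 when scaled without the top 20 genes. With other detection levels it called 817 and 0 at 10 reads, 692 and 0 at 10 RPM, 21 and 0 at 1000 RPM, and 594 and 0 at 1 read after thinning. The cause of these shifts was not tested.

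With the ratio of mean RPM, which the wells with the highest levels weigh most, list medians turned to -0.48 for resting microglia identity, -0.23 for early response transcription factors, -0.072 for MHC class II presentation, -0.19 for iron storage and transport and -0.78 for cytosolic ribosomal proteins, and Klf6 to -0.11. In matched wells they turned to -0.20 for cytokine and chemokine receptors, -0.11 for inducible G protein-coupled receptors, -1.02 for resting microglia identity, -1.14 for early response transcription factors and -0.055 for Toll-like receptors and co-receptors, and Il1a to -0.27. Matched wells less day 4 replicate 1, added after the data were seen, gave 329 genes upward, 98 downward, a median difference of 0.55, and 104 and 10 genes by share. List medians were then -0.66 for cytokines and growth factors, -0.99 for cytokine and chemokine receptors, -0.24 for inducible G protein-coupled receptors, -1.12 for resting microglia identity, -0.11 for lineage transcription factors, -1.43 for early response transcription factors, -0.11 for NF-kB genes and -0.073 for Toll-like receptors, and differences -0.82 for Il1a, -0.24 for C3ar1, -0.16 for Klf6 and -0.55 for Cd14. At 1000 RPM the share differences of Npc2, Ier3, Cox6a1 and Prdx2 turned to -9, -4, -3 and -4 percentage points.

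Leaving out 1 well at a time gave 1134 to 1437 genes upward, 2 to 11 downward, a median difference of 1.84 to 2.08, a median level in holding wells of -0.78 to -0.63, and 287 to 416 and 3 to 7 genes by share. Of 95 genes past the fold that the naming rule gave, 10 lost the call without some single well: Cst3, Selenop, Ccdc152, Hsp90ab1, Cd14 and Slc25a4 without any of several, Ctsb without uncrushed replicate 16 or 18, Bhlhe41 and Ier3 without day 4 replicate 14, and Plin3 without day 4 replicate 7 or 10. Of 41 others past the fold with a value or count in the text, 11 did so: Gpr183, Mcm3, Mef2c, Lipa, Myl12a, Rhob and the 5 lower small RNA and predicted genes. Scaling without mitochondrial genes was not run, as the table used here holds 0 genes of that genome. No paired analysis was possible because the wells carry no numbers that tie cells of the groups to each other. In the shallowest well a gene needed 6.01 reads to count as held, which follows from the 100 RPM level chosen. Amplified reads without molecular identifiers give intervals that cover counting error only.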

Other observations

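On plate 3, which the comparison leaves out, 2 day 4 wells and 13 uncrushed wells passed the same rules. Ccl12 was at 20.3 and 60.9 RPM in the 2 day 4 wells, under the level at which a gene counted as held, and at 1.42, 20.0 and 7210 RPM (lowest, median and highest) in the uncrushed wells. Akr1a1 was at 9.04 and 12.2 RPM in the 2 day 4 wells and at 0, 6.79 and 5786 RPM in the uncrushed wells, so that on that plate neither gene was held by a day 4 well. The same was true of the rest of the 12 genes with the highest differences, apart from Gusb, at 0 and 7484 RPM in the 2 day 4 wells. Hnrnpc, Psma5, Hnrnpab and Nme1 were at 0 RPM in both.

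Lipid handling held few genes often enough to compare, 7 of 28 listed, of which 4 were past the fold upward, 57.1% against 43.5% of all genes compared. The 4 were Lpl (4.59), the cholesterol esterifying enzyme Soat1 (2.80), the lipid droplet protein Plin3 (2.52) and lysosomal acid lipase, Lipa (2.47). Plin3 was past the fold only with day 4 replicates 7 and 10, and Lipa lost the call when any of 11 wells was left out. Among receptors of cytokines and chemokines, 7 of 19 were past the fold upward, 36.8% against 43.5% of all genes compared. They were led by Ifngr2 (3.87) and Il10rb (3.34), which bind interferon gamma and interleukin 10 with their partner chains. Those partners, Ifngr1 (1.13) and Il10ra (1.24), were not past the fold. Among lysosomal genes, Ctsc (5.66), the intracellular cystatin Cstb (4.75) and Ctsh (4.03) were past the fold upward, whereas the lysosomal enzyme Hexa was at -0.64.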
